A study of Mus musculus with 11 samples.

Results

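The mitochondrial ribosome is built from proteins that are nearly all coded in the nucleus, and the genes for those proteins were followed here in mouse hematopoietic stem cells (HSCs). Members were all genes whose symbol begins with Mrpl or Mrps and a digit and that have a probe set assigned to that symbol alone, which gave 71 of the 22180 genes measured. Their proteins divide into 45 of the large subunit and 25 of the small subunit, and the remaining member, Mrps36, is now placed in a mitochondrial dehydrogenase complex and not in the ribosome. A further 7 symbols of this form share their probe sets with another gene and were not analysed here. The name of the gene chose the members and no measured value did, but the set was taken up with earlier results of these data known.

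The cells were sorted by flow cytometry as HSCs from injected mice, and each of the 11 samples was hybridised to 1 Affymetrix array. The groups were RApIC (mice given all-trans retinoic acid, ATRA, and then polyIC, 3 arrays), pIC (polyIC, 2 arrays), ATRA (3 arrays) and PBS (the saline control, 3 arrays). ATRA is the vitamin A derivative that activates retinoic acid receptors, and polyIC is a synthetic double-stranded RNA that mimics a viral infection and induces interferon. The labels give no strain, genotype, age, dose, time or sorting gate. They do not state whether replicates came from separate mice, so every p-value rests on the spread among these arrays, which may be technical. Values are log2 intensities, differences are in log2 units with the standard error (SE) of the limma fit, and a call means an adjusted p under 0.05 (Benjamini-Hochberg, over all 22180 genes).

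Mitochondrial ribosomes translate the few messenger RNAs coded in mitochondrial DNA, all of which specify subunits of the respiratory chain and the ATP synthase. Their proteins are translated in the cytosol, imported, and assembled on mitochondrial ribosomal RNA, and they include homologues of bacterial ribosomal proteins as well as proteins found only in mitochondria. Dormant HSCs are known for low mitochondrial activity and low protein synthesis, and interferon is known to drive them into division.

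The treatments left their marks on the arrays. Of 9 interferon target genes measured, 8 were called higher in pIC than in PBS, with a list median of 3.42 log2 units, and 8 were called higher in RApIC than in ATRA, with a median of 3.06. RApIC replicate 2 stood apart: its interferon list median relative to the PBS mean was 1.86, against 3.53 and 3.22 in the other RApIC arrays. Of 4 retinoic acid targets, 1 was called higher in ATRA than in PBS, and the list median was 1.54. Relative to the PBS mean, the median of this list was 1.17, 1.92 and 1.53 in ATRA arrays. It was 0.05, 0.59 and 0.40 in RApIC arrays, -0.08 and -0.27 in pIC arrays and -0.03, 0.23 and -0.18 in PBS arrays. The retinoic acid mark was thus smaller in RApIC arrays than in ATRA arrays. Of 8 HSC markers measured, 6 fell in pIC relative to PBS, among them Hlf (-1.81), Fgd5 (-1.66) and Mecom (-1.46 log2 units), and 4 fell in RApIC relative to ATRA. The summed intensity of these 8 markers on the linear scale was 8371, 13023 and 9681 in RApIC arrays, 8703 and 8334 in pIC arrays, 14126 to 15125 in ATRA arrays and 13888 to 14893 in PBS arrays. In sorted bulk samples a smaller share of one cell type and less RNA per cell cannot be told apart.

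In pIC arrays 41 of the 71 mitochondrial ribosomal protein genes rose relative to PBS and 0 fell, where 8.94% of all genes were called higher and 5.75% lower. The median difference of the members was 0.38 log2 units, with 70 of 71 above 0, while the median over all genes was 0.00. Single members ranged from -0.09 to 0.99 log2 units, which for the largest, Mrps22, is a fold of 1.98. For 61 members both pIC arrays lay above all 3 PBS arrays, an order that 23.4% of all genes showed. Relative to the PBS mean, the median over members was 0.21, 0.06 and 0.20 in the RApIC arrays, 0.44 and 0.37 in the pIC arrays, -0.07, -0.02 and -0.06 in the ATRA arrays and -0.05, -0.01 and 0.06 in the PBS arrays. Both pIC arrays were thus above every other array, and the lowest RApIC array, replicate 2, was level with the highest PBS array.

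**Figure D1:**
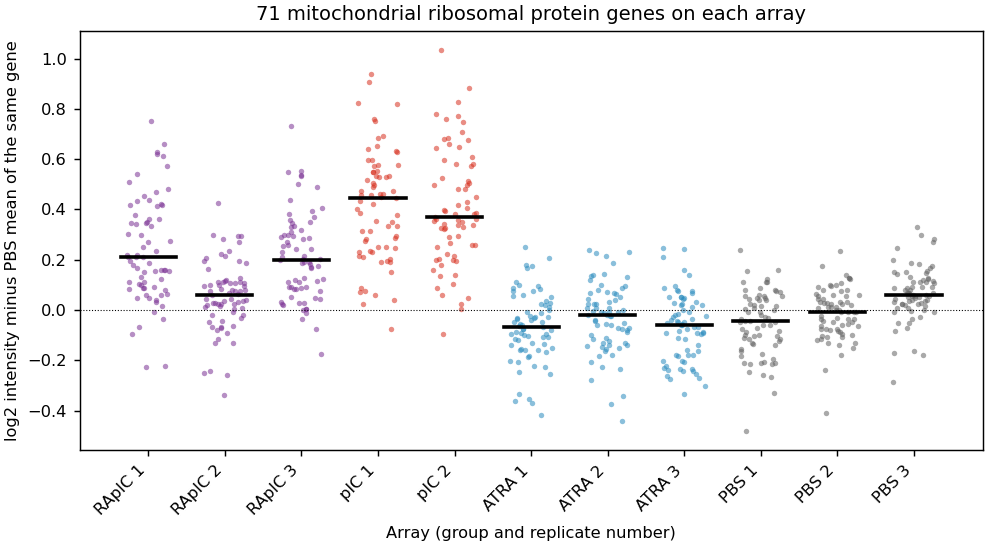
Difference of each of the 71 genes from its PBS mean (log2 units, vertical axis) in each of the 11 arrays, grouped as RApIC, pIC, ATRA and PBS, with the median over genes marked. The 2 pIC arrays have medians of 0.44 and 0.37, and the RApIC arrays 0.21, 0.06 and 0.20.

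Both subunits and both kinds of protein were among the genes that rose. Of large subunit genes 26 of 45 rose, with a median difference of 0.38, and of small subunit genes 15 of 25 rose, with a median of 0.37. Homologues of bacterial ribosomal proteins rose in 23 of 43 genes (median 0.37) and mitochondria-specific proteins in 18 of 27 (median 0.40). The difference between these classes was not tested. The genes that rose had differences of 0.26 to 0.99 log2 units, and the 30 that were not called -0.09 to 0.59. Nearly all members were among the brighter genes of the array, where calls are more frequent. Within the brightest 60% of genes, 46 of 70 members were called higher, where 17.7% of all genes in that range were.

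The promoters of 62 members were found in the RefSeq table of mouse promoters (build GRCm38.p6), and 6 are shown as examples of 4 motifs of factors known to act on nuclear genes for mitochondria. They were chosen after the values were seen, and other members, such as Mrpl32 and Mrpl3, hold matches too. Each is the 150 bases before the annotated start, written 5′ to 3′ on the gene's strand, with the motif in capitals. The motifs were CCGGAAGT (the ETS site bound by GABP), GCGCATGCGC (NRF1, a palindrome), AAGATGGC (YY1) and CACGTG (the E-box bound by MYC and MAX), each searched on both strands, and none of these 4 strings contains another.
Mrps22 (chr9:98601680-98601829, minus strand): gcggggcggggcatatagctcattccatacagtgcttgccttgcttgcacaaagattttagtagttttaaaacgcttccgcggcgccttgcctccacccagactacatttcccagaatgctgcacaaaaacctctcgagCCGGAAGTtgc
Mrps27 (chr13:99344636-99344785, plus strand): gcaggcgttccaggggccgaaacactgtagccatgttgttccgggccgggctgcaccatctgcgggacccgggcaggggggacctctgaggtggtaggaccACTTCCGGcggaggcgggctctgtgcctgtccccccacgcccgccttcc
Mrps11 (chr7:78782981-78783130, plus strand): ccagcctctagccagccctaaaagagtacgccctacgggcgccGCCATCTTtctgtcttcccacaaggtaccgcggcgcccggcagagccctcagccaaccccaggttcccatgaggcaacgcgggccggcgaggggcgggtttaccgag
Mrpl51 (chr6:125192050-125192199, plus strand): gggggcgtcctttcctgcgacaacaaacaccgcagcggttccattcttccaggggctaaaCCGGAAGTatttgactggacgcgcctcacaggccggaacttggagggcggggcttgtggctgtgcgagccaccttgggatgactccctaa
Mrpl36 (chr13:73330859-73331008, plus strand): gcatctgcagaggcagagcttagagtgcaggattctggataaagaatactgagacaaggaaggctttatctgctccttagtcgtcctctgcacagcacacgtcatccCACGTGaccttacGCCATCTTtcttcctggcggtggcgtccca
Mrpl39 (chr16:84735245-84735394, minus strand): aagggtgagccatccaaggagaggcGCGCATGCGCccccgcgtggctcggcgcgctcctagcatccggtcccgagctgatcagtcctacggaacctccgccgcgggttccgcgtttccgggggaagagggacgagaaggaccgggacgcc

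The ETS string begins 11 bases before the start in Mrps22, 49 in Mrps27 and 90 in Mrpl51, on the opposite strand in Mrps27. The YY1 string is read on the opposite strand in Mrps11, where its match begins 107 bases before the start, and in Mrpl36, where it begins 30 bases before the start and follows an E-box at 43 bases. The palindromic NRF1 string of Mrpl39 begins 125 bases before the start. In windows of 300 bases, which run from 250 before to 50 after the start, the ETS string was found in 9 of 62 members (14.5%), against 5.22% of the 16990 measured genes with a promoter in the table. The YY1 string was found in 12 members (19.4%), against 3.31% of those genes, and the NRF1 string in 3 members (4.84%), against 1.37%. The E-box was found in 5 members (8.06%), against 8.18%. At least 1 of the ETS, YY1 and NRF1 strings was present in 14 of the 34 members with a promoter that were called higher in pIC than in PBS, and in 8 of the 28 that were not called. Of the 6 shown, Mrpl39 was the one not called, with a difference of 0.09 ± 0.10 in pIC relative to PBS (adjusted p = 0.637). A match is a description of these letters and not of binding.

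Among large subunit genes the largest rise was that of Mrpl38, a mitochondria-specific protein of the central protuberance. Its intensities were 9.19, 8.73 and 9.07 in RApIC arrays, 9.36 and 9.42 in pIC arrays, 8.48, 8.51 and 8.63 in ATRA arrays and 8.52, 8.55 and 8.53 in PBS arrays. The pIC arrays were the highest, all RApIC arrays lay above all ATRA and PBS arrays, and RApIC replicate 2 was the lowest of its group. The difference in pIC relative to PBS was 0.85 ± 0.12 log2 units (SE; a fold of 1.81; limma adjusted p = 0.00274). Other proteins of the same protuberance included Mrpl46, which rose by 0.41 (adjusted p = 0.0192), and Mrpl40, which rose by 0.34 (adjusted p = 0.04). Mrpl58, a release factor homologue that frees stalled ribosomes, rose by 0.31 (adjusted p = 0.0388). These are not a full list of its proteins. Mrpl48, a further central protuberance protein, was the single member below 0, with 7.18, 7.27 and 7.23 in RApIC arrays, 7.32 and 7.31 in pIC arrays, 7.31, 7.35 and 7.31 in ATRA arrays and 7.44, 7.43 and 7.33 in PBS arrays. Both pIC arrays lay below all PBS arrays, but the difference of -0.09 ± 0.07 did not pass the test (adjusted p = 0.531). Mrpl46, Mrpl40, Mrpl58, Mrpl48 and the members in the next paragraph that are grouped by the exit tunnel were singled out after their values were seen.

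The proteins around the exit of the nascent chain differed among themselves. Mrpl22, whose protein lines the tunnel, had 7.99, 7.99 and 8.14 in RApIC arrays, 8.46 and 8.62 in pIC arrays, 7.96, 7.99 and 7.87 in ATRA arrays and 7.92, 7.87 and 7.95 in PBS arrays. The pIC arrays stood apart, and the RApIC, ATRA and PBS arrays lay close together. Its difference in pIC relative to PBS was 0.63 ± 0.09 (adjusted p = 0.00245). Mrpl47, the homologue of bacterial L29 at the tunnel exit, had 8.53, 8.29 and 8.56 in RApIC arrays, 8.93 and 8.75 in pIC arrays, 8.09, 8.01 and 8.12 in ATRA arrays and 8.11, 8.16 and 8.24 in PBS arrays. Here the RApIC arrays also lay above every ATRA and PBS array, and the pIC difference was 0.67 ± 0.10 (adjusted p = 0.00332). Mrpl45, which helps to hold the ribosome at the inner membrane, rose by 0.57 (adjusted p = 0.0146). By contrast, the neighbours Mrpl23, Mrpl24 and Mrpl17 had differences of 0.05 ± 0.10, 0.03 ± 0.08 and 0.07 ± 0.09, with adjusted p of 0.799, 0.855 and 0.713. All 3 turned negative under cyclic loess scaling, where they were -0.053, -0.065 and -0.035.

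Of the stalk, which recruits translation factors, Mrpl12 rose. It had 7.59, 7.59 and 7.84 in RApIC arrays, 8.06 and 8.06 in pIC arrays, 7.33, 7.53 and 7.46 in ATRA arrays and 7.42, 7.46 and 7.58 in PBS arrays, and the pIC arrays, equal at this precision, were above all others. Its difference in pIC relative to PBS was 0.57 ± 0.10 (adjusted p = 0.00569). Mrpl11 of the stalk base had 0.34 ± 0.10 (adjusted p = 0.055) and Mrpl10, which anchors Mrpl12, had 0.28 ± 0.11 (adjusted p = 0.135), so neither passed. Of the proteins that lie near the catalytic centre of the large subunit, Mrpl2 rose by 0.53 (adjusted p = 0.00814) and Mrpl3 by 0.30 (adjusted p = 0.0474). Further large subunit genes that rose were Mrpl32, whose precursor is cleaved by the m-AAA protease before assembly, by 0.84, Mrpl55 by 0.74, Mrpl15 by 0.69 and Mrpl16 by 0.68. Mrpl18, a homologue of the bacterial protein that binds 5S RNA, rose by 0.40. The calls of Mrpl32 (adjusted p = 0.0414), Mrpl18 (adjusted p = 0.0478) and Mrpl3 were lost under cyclic loess scaling, with the replicate block, and without any 1 of 7, 9 and 10 of the 11 arrays. The arrays that could be left out without losing the call were RApIC replicate 2 for all 3 genes, RApIC replicate 1 also for Mrpl18 and Mrpl32, and PBS replicate 3 and ATRA replicate 3 also for Mrpl32. Mrps30, which despite its name sits in the large subunit, rose by 0.54 (adjusted p = 0.00495).

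In the small subunit the largest difference was that of Mrps22, a mitochondria-specific protein. Its intensities were 9.09, 8.73 and 9.25 in RApIC arrays, 9.46 and 9.55 in pIC arrays, 8.58, 8.36 and 8.56 in ATRA arrays and 8.38, 8.38 and 8.79 in PBS arrays. The pIC arrays were the highest, RApIC replicate 2 lay below PBS replicate 3, and PBS replicate 3 lay above the other PBS arrays. The difference in pIC relative to PBS was 0.99 ± 0.16 (adjusted p = 0.00452). Mrps34, which is needed for a stable small subunit in mouse, rose by 0.71, and Mrps27, a pentatricopeptide repeat protein, by 0.66. Of genes coding for homologues of the bacterial core, Mrps7 rose by 0.58 (adjusted p = 0.0193), Mrps5 by 0.29 (adjusted p = 0.0463) and Mrps12, the decoding-site protein, by 0.26 (adjusted p = 0.0496). The last 2 were close to the threshold and were lost under cyclic loess scaling, with the replicate block, and without any 1 array other than RApIC replicate 2 (Mrps5) or RApIC replicates 1 and 2 (Mrps12). Mrps5 was also not called with the mean of probe sets. Mrps36, the member outside the ribosome and the only one among the dimmest 40% of genes, had a difference of 0.17 ± 0.19 (adjusted p = 0.637).

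The 3 paralogs of bacterial S18 sit at different sites, Mrps18a in the large subunit and Mrps18b and Mrps18c in the small one. Mrps18b had 9.95, 9.37 and 9.87 in RApIC arrays, 10.09 and 10.10 in pIC arrays, 9.36, 9.34 and 9.27 in ATRA arrays and 9.22, 9.35 and 9.44 in PBS arrays, and its pIC arrays were above all others. It rose by 0.76 in pIC relative to PBS (adjusted p = 0.0093), Mrps18c rose by 0.47 (adjusted p = 0.0393), and Mrps18a had 0.39 ± 0.15 (adjusted p = 0.109). The second probe set of Mrps18b, which was dimmer, had a difference of -0.01 (adjusted p = 0.979), so the call rests on 1 of its 2 probe sets. The call of Mrps18c was lost under cyclic loess scaling and without any 1 array other than PBS replicate 3 and RApIC replicates 1 and 2. Of the 9 members with 2 probe sets, the brighter one was called and the dimmer one was not in Mrpl12 (0.57 and 0.38), Mrpl47 (0.67 and 0.22), Mrps18b (0.76 and -0.01), Mrps18c (0.47 and 0.27) and Mrps5 (0.29 and 0.23). In Mrps16 the order was the opposite, with 0.20 ± 0.08 for the brighter probe set that was used (adjusted p = 0.115) and 0.58 for the other (adjusted p = 0.0067). Both probe sets of Mrpl36 were called higher, at 0.48 and 0.77.

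**Figure D2:**
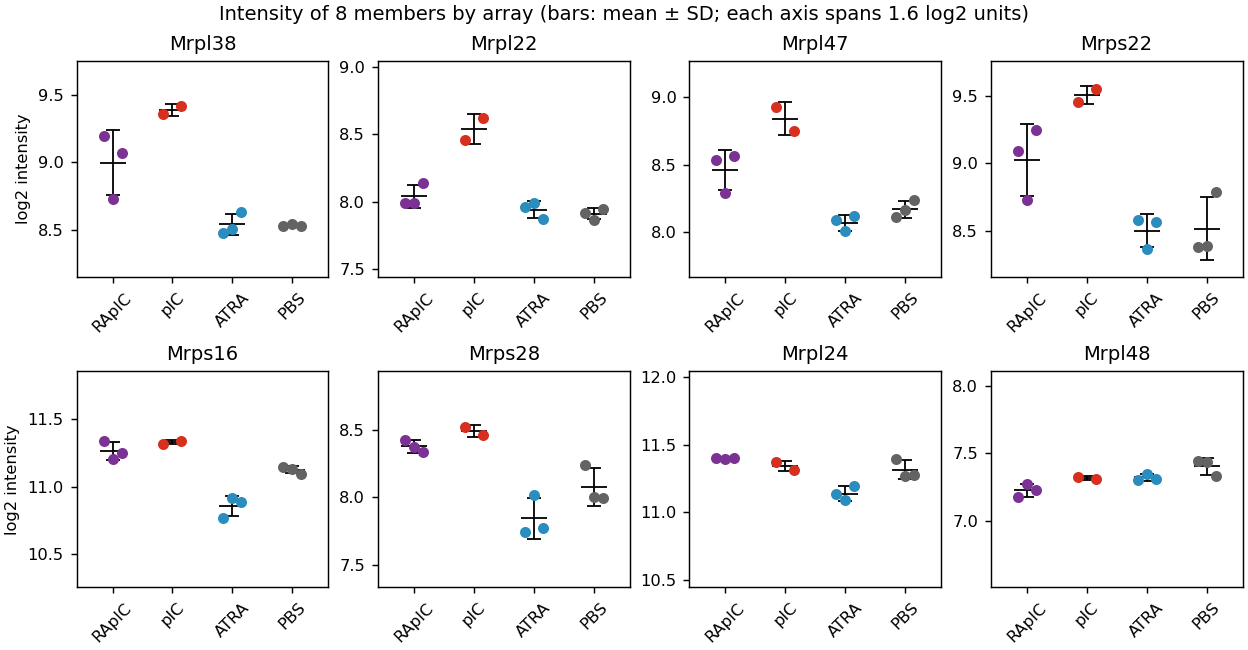
Log2 intensity (vertical axis) of 8 members in each array of the RApIC, pIC, ATRA and PBS groups, with points for arrays and bars for the group mean and SD (n = 3, 2, 3 and 3). In Mrpl38 and Mrps22 the pIC arrays are highest and RApIC lies between, in Mrps16 and Mrps28 RApIC and pIC lie close together, and Mrpl24 and Mrpl48 show no rise in pIC.

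The count of 41 rested strongly on the small pIC group. With pIC replicate 2 left out, 5 members passed the test (Mrpl22, Mrpl38, Mrpl47, Mrpl51 and Mrps25), and with pIC replicate 1 left out, 10 did, the single remaining array then being assumed to vary like the other groups. Without PBS replicate 1 the count was 27 and without PBS replicate 2 it was 25. The share of all genes called without a pIC or PBS array is not given here, so these counts do not set members apart from other genes. The median difference over members was 0.34 to 0.40 with 1 PBS array left out, and 0.37 or 0.44 with 1 pIC array left out. ATRA and RApIC arrays do not enter this difference. Mrpl22, Mrpl38 and Mrpl47 were called in every fit that was run. Markers of other blood cells moved with this comparison too. Of 6 erythroid markers measured 4 rose (Klf1 by 1.70, Gata1 by 1.03, Epor by 0.98 and Tfrc, the transferrin receptor, by 0.89), and their summed intensity on the linear scale was 6402 and 7054 in pIC arrays, against 2849 to 3920 in PBS arrays. Of 11 T and NK cell markers 2 rose (Nkg7 and Gzmb), with sums of 2353 and 3201 in pIC arrays, against 996 to 1349 in PBS arrays, and of 7 monocyte, macrophage and dendritic markers 2 rose (Mpeg1 and Ly6c2), with 2345 and 2439 in pIC arrays, against 974 to 1083 in PBS arrays. Of 4 megakaryocyte and platelet markers 1 rose (Itga2b) and 1 fell (Pf4), and none of 5 B cell or 7 neutrophil markers was called. Their part in the result was not tested.

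After ATRA alone none of the 71 genes was called in either direction by limma, where 0.00451% of all genes were called higher and 0% lower. The median difference was -0.05, with 50 members below 0. It was -0.016, with 28 members above 0, without PBS replicate 3, and -0.090 without PBS replicate 1. The smallest p belonged to Mrps16, a homologue of the bacterial assembly protein S16, with 11.34, 11.20 and 11.25 in RApIC arrays, 11.32 and 11.34 in pIC arrays, 10.77, 10.92 and 10.88 in ATRA arrays and 11.14, 11.13 and 11.09 in PBS arrays. All ATRA arrays lay below all PBS arrays, and the difference of -0.27 ± 0.07 had an unadjusted p of 0.00326 and an adjusted p of 0.392. Mrpl54 had -0.30 ± 0.11 and Mrpl40 -0.23 ± 0.09 in ATRA relative to PBS. For 10 members all ATRA arrays lay below all PBS arrays and for 2 above, where 6.08% and 6.61% of all genes did so. ATRA replicate 1 differed from the other ATRA arrays in its neutrophil markers, whose summed intensity was 2558, against 762 and 754 in ATRA replicates 2 and 3 and 562 to 603 in PBS arrays.

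**Figure D3:**
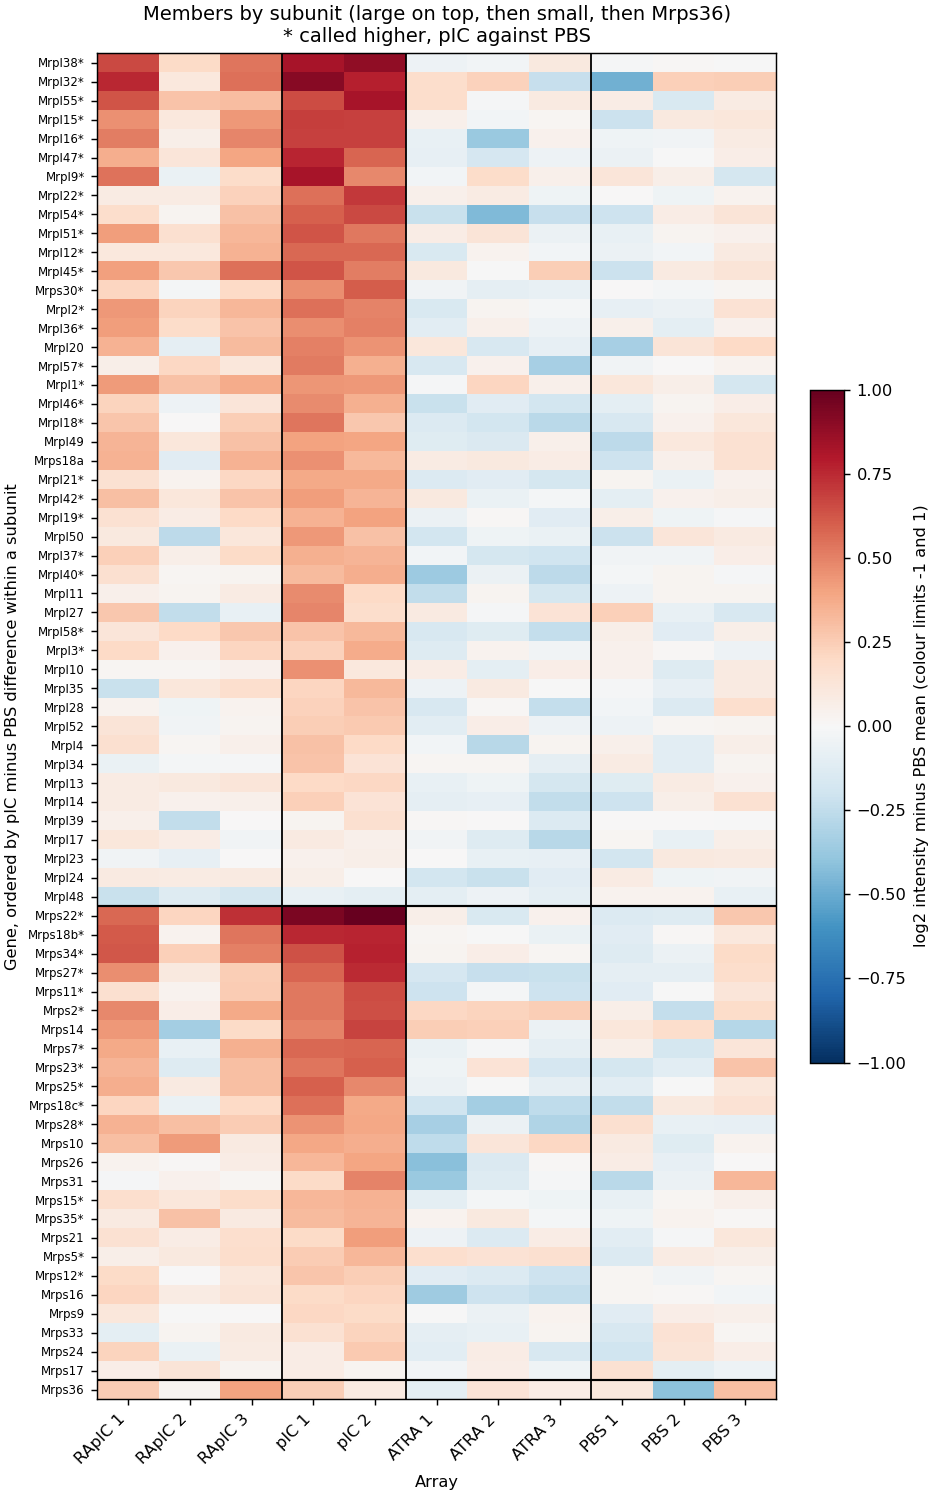
Difference of each member from its PBS mean (log2 units, colour) for the 71 genes in rows and the 11 arrays in columns, ordered RApIC, pIC, ATRA and PBS. The pIC columns are the highest for most genes, RApIC replicate 2 is paler than RApIC replicates 1 and 3, and ATRA and PBS columns lie near 0.

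The response to polyIC after ATRA was examined by comparing RApIC with ATRA, a comparison that shares no array with pIC against PBS. In RApIC arrays 12 of the 71 genes rose relative to ATRA and 0 fell, where 3.5% of all genes were called higher and 3.71% lower. The median difference was 0.23, with 65 members above 0. The largest rise was that of Mrps28, a small subunit protein, with 8.43, 8.37 and 8.33 in RApIC arrays, 8.52 and 8.46 in pIC arrays, 7.74, 8.02 and 7.77 in ATRA arrays and 8.24, 8.0 and 7.99 in PBS arrays. The RApIC and pIC arrays lay above every ATRA and PBS array, and the difference in RApIC relative to ATRA was 0.53 ± 0.10 (adjusted p = 0.0111). Mrps16, whose arrays are given above, rose by 0.41 (adjusted p = 0.00948). The others that rose were Mrps27 by 0.48, Mrpl54 by 0.46, Mrpl38 by 0.46, Mrpl47 by 0.39, Mrpl2 by 0.38, Mrpl58 by 0.37, Mrpl36 by 0.33, Mrpl37 by 0.30, Mrpl21 by 0.28 and Mrpl24 by 0.26. Adjusted p was 0.0392 for Mrpl36, 0.043 for Mrpl21, 0.0453 for Mrpl24 and 0.0471 for Mrpl37. None of these was called with the replicate block, and only Mrpl36 was under cyclic loess scaling. The call of Mrpl36 was also lost with the mean of probe sets. Those of Mrpl36 and Mrpl37 were lost without any 1 of 9 and 10 of the 11 arrays. In Mrpl36 and Mrpl47 the dimmer probe set was not called in this comparison.

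Of these 12 genes, 10 had also risen in pIC relative to PBS, which is 24.4% of the 41 genes called there and 83.3% of the 12. The exceptions were Mrps16 and Mrpl24. How many of all genes called in 1 comparison were also called in the other is not given here. This overlap therefore does not set members apart from other genes. Mrpl24, a tunnel-exit protein, had 11.40, 11.39 and 11.40 in RApIC arrays, 11.37 and 11.31 in pIC arrays, 11.13, 11.09 and 11.19 in ATRA arrays and 11.39, 11.27 and 11.28 in PBS arrays, so that the ATRA arrays were the low ones and the RApIC, pIC and PBS arrays lay close together. Other members were not called in RApIC relative to ATRA although they had risen in pIC relative to PBS. They included Mrps22, with 0.52 ± 0.15 (adjusted p = 0.0572), Mrpl12 with 0.23 ± 0.09 (adjusted p = 0.154) and Mrpl22 with 0.10 ± 0.08 (adjusted p = 0.528). Across the 71 genes the 2 sets of differences had a Pearson r of 0.607 and a Spearman rho of 0.615, a description across genes, which are not independent replicates and were measured on the same arrays. The difference was smaller in RApIC relative to ATRA than in pIC relative to PBS for 63 of 71 genes. The share of all genes with a smaller difference is not given here.

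The number called depended on single arrays. Without RApIC replicate 2, the array with the weaker interferon response, 27 members were called higher in RApIC than in ATRA, where 6.98% of all genes were. Without RApIC replicate 1, RApIC replicate 3, ATRA replicate 1, ATRA replicate 2 or ATRA replicate 3 the counts were 3, 2, 2, 4 and 2. For those fits the share of all genes called is not given here. Mrps16 and Mrps28 were called in every fit that was run. The erythroid marker sums were 5369, 1670 and 4366 in RApIC arrays 1, 2 and 3, against 2425 to 3058 in ATRA arrays, and the T and NK sums 4166, 1410 and 3593, against 1035 to 1357. The monocyte, macrophage and dendritic sums were 2849, 1378 and 2459 in RApIC arrays, against 1058 to 1258 in ATRA arrays, and 2 of these 7 markers rose (Mpeg1 and Ly6c2). The megakaryocyte and platelet sums were 5215, 4663 and 5387 in RApIC arrays, against 2981 to 3571 in ATRA arrays, and 1 of 4 markers rose (Itga2b). PBS arrays had megakaryocyte and platelet sums of 5038 to 5755, so that here the ATRA arrays were the low ones. Replicate 2 was the lowest RApIC array in interferon targets, in these marker sums and in the median of the members. Bright genes weigh most in such sums, and the list medians relative to the PBS mean differed. In these medians replicate 2 was lowest for erythroid (0.50, -0.23 and 0.48) and T and NK markers (1.84, 0.04 and 1.37). It was highest for monocyte, macrophage and dendritic (0.04, 0.25 and 0.12) and megakaryocyte and platelet markers (-0.53, 0.05 and -0.39). The part of the interferon response and of these markers in the result was not tested.

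**Figure D4:**
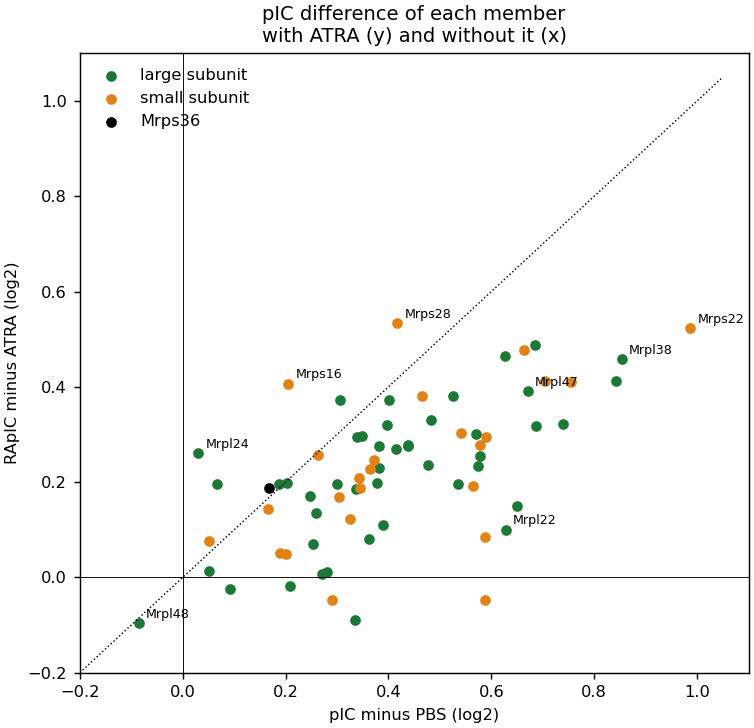
Difference in RApIC relative to ATRA (log2 units, vertical axis) against the difference in pIC relative to PBS (log2 units, horizontal axis) for each of the 71 genes, with the line of equality. Of the genes 63 lie below the line, and Mrps22 and Mrpl38 are farthest to the right, at 0.99 and 0.85.

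Whether ATRA before polyIC altered the response was addressed by RApIC against pIC. No member was called by limma in either direction, and 0% of all genes were. The median difference was -0.25, with 68 of 71 below 0, and for 58 members all RApIC arrays lay below both pIC arrays, an order that 17.4% of all genes showed. That median was -0.186 without RApIC replicate 2, the array with the weaker interferon response, and -0.188 under cyclic loess scaling. The smallest p was that of Mrpl22, whose arrays are given above, with -0.50 ± 0.09 (95% interval -0.69 to -0.31, unadjusted p = 0.000142, adjusted p = 0.218). Mrps11, a homologue of bacterial S11, had -0.44 ± 0.10 (95% interval -0.67 to -0.21) and Mrps30 had -0.41 ± 0.09 (95% interval -0.60 to -0.21). These intervals are single-gene intervals without adjustment. The interaction, which sets the difference of RApIC from ATRA against that of pIC from PBS, was called in 0 members and in 0% of all genes. Its median was -0.16, with 63 members below 0, and under cyclic loess scaling the median was -0.089, with 16 members above 0. Without RApIC replicate 2 it was -0.127, with 11 members above 0. The median interaction over all genes was -0.020, and 0.0014 under cyclic loess. The smallest p was again that of Mrpl22, with -0.53 ± 0.12 (unadjusted p = 0.000895, adjusted p = 0.702). A difference between the responses to polyIC with and without ATRA was therefore not shown for any single member, nor were the responses shown to be alike.

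Set against PBS, RApIC arrays had 1 member called higher, Mrpl38 with 0.46 ± 0.11 (adjusted p = 0.0482), and 0 lower, where 1.61% of all genes were called higher and 1.51% lower. The next were Mrps34 with 0.45 ± 0.11 (adjusted p = 0.0574) and Mrpl1 with 0.36 ± 0.09 (adjusted p = 0.0633), and the median over members was 0.15, with 65 above 0. With 1 array left out, Mrpl38 was called in 1 of 11 fits, the one without RApIC replicate 2. In that fit the count was 16, where 5.48% of all genes were called higher. The group means followed the same order in most members. pIC had the highest mean in 67 members, RApIC in 3, PBS in 1 and ATRA in 0, and the lowest mean was that of ATRA in 47, PBS in 20 and RApIC in 4. For 62 members the RApIC mean lay between those of pIC and PBS. The share of all genes with these orders of means is not given here. These comparisons share the RApIC, pIC or PBS arrays with those above.

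The machinery around the mitochondrial ribosome was examined with lists of genes taken up with earlier results known. Mitochondrial protein import rose in 13 of 21 genes in pIC relative to PBS and fell in 0, with a median of 0.40, and included Tomm70a (0.74) and Tomm22 (0.63) of the outer membrane entry complex, Timm13 (0.58), a chaperone between the membranes, and Grpel1 (0.86), the exchange factor of the import motor. In RApIC relative to ATRA 4 rose (Timm17a, Timm22, Timm50 and Timm8a1), with a list median of 0.31. Of 19 genes for mitochondrial tRNA synthetases and the amidotransferase that charges glutaminyl-tRNA, 6 rose in pIC relative to PBS (median 0.32), among them Sars2 (0.76), Qrsl1 (0.57) and Yars2 (0.46). These 3 also rose in RApIC relative to ATRA, by 0.43, 0.42 and 0.40, where Sars2 and Yars2 lost the call with the replicate block. Of 13 translation factors 3 rose in pIC relative to PBS, the elongation factors Gfm1 (0.84), Tsfm (0.70) and Tufm (0.55), and Gfm1 also rose in RApIC relative to ATRA (0.50). The rise of Tufm in pIC was lost under cyclic loess scaling, with the mean of probe sets, and without any 1 pIC or PBS array, that of Tsfm without either pIC array, and that of Gfm1 in none of these fits.

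Of 24 genes for assembly of the mitochondrial ribosome and processing of its RNA, 6 rose in pIC relative to PBS (median 0.21), including Mpv17l2 (0.67), Fastkd2 (0.58), Noa1 (0.54) and Rbfa (0.35), and 2 rose in RApIC relative to ATRA, Rbfa and Rcc1l. Cyclic loess scaling ended the call of Rbfa in pIC relative to PBS, and the replicate block that of Rcc1l. Of 18 genes for the upkeep and transcription of mitochondrial DNA and the handling of its RNA, 4 rose and 1 fell in pIC relative to PBS (median 0.12). Pnpt1, an RNA exchange and degradation enzyme that interferon is known to induce, rose by 0.95, Lrpprc, which stabilises mitochondrial messenger RNA, rose by 0.70, and Polg2, the accessory subunit of the mitochondrial DNA polymerase, fell by 0.46 (adjusted p = 0.0455). The call of Polg2 was lost with the replicate block and without any 1 array other than PBS replicate 1 and RApIC replicate 2, with differences of -0.59 to -0.33. Ribosomal proteins under other symbols were not called in pIC relative to PBS, with 0.32 ± 0.11 for Ptcd3, 0.18 ± 0.09 for Dap3 and 0.15 ± 0.12 for Gadd45gip1 (adjusted p = 0.0925, 0.258 and 0.507). Among 11 regulators of nuclear genes for mitochondria, Pprc1 (0.54) and Max (0.36) rose and Ppargc1a, the coactivator PGC-1 alpha, fell by 0.83. Max was not called under cyclic loess scaling or with the replicate block. Ppargc1a also fell in RApIC relative to ATRA, by 1.001.

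The respiratory chain, to which the mitochondrial ribosome contributes, and the cytosolic ribosome had lower medians. Of 78 nuclear genes for the respiratory chain and ATP synthase, 13 rose and 2 fell in pIC relative to PBS, with a median of 0.16. Cox5a (0.44) and Ndufs8 (0.50) were among those that rose. In RApIC relative to ATRA 7 rose and 1 fell, with a median of 0.12. Of 64 cytosolic ribosomal protein genes, 3 rose and 2 fell in pIC relative to PBS, with a median of -0.09, and 2 rose and 2 fell in RApIC relative to ATRA. Those that rose in pIC relative to PBS were Rpl34 (0.81), Rps27l (0.38) and Rps4l (0.48), and Rpl21 and Rps28 fell. Neither fall was called with the mean of probe sets, nor that of Rpl21 with the replicate block. Cytosolic ribosomal protein genes have many near-identical pseudogenes, so that their probe sets can be less specific. The difference between these lists and the mitochondrial ribosomal protein genes was not tested. Without pIC replicate 1 or 2, the import genes called higher in pIC than in PBS numbered 3 and 2, those of the respiratory chain 0 and 0, the synthetases 2 and 1, the translation factors 1 and 1 and the assembly genes 0 and 1. In RApIC relative to ATRA the count of import genes was between 0 and 13 with 1 array left out, the highest without RApIC replicate 2. The share of all genes called without a pIC array is not given here.

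**Figure D5:**
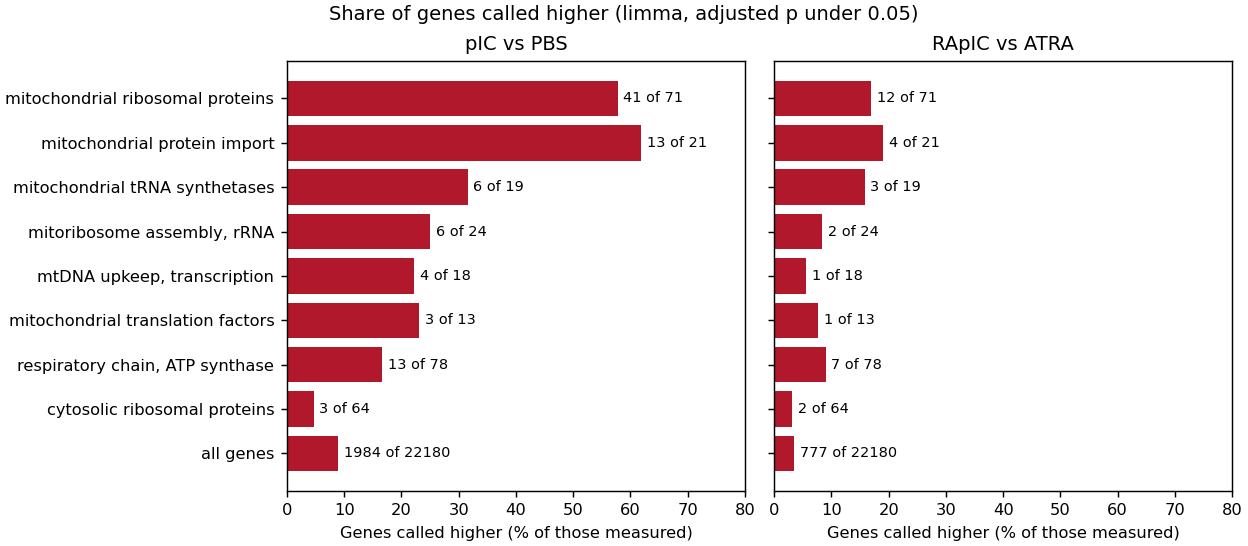
Genes called higher by limma at an adjusted p under 0.05 (% of those measured, horizontal axis) in the lists named on the vertical axis. One panel is for pIC relative to PBS and the other for RApIC relative to ATRA, and each bar is labelled with its count. In pIC relative to PBS, 41 of 71 mitochondrial ribosomal protein genes were called higher, against 8.94% of all genes. In RApIC relative to ATRA 12 of 71 were, against 3.5%.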

How the data were processed

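Total RNA of sorted HSCs was labelled with biotin and hybridised to Affymetrix arrays, per the labels' protocols. The authors deposited log2 intensities of 41345 probe sets for 11 arrays, and the oligo package 1.36.1, RMA and limma 3.28.20 are named, without role, per the submitters' processing notes. RMA with quantile normalisation makes the array distributions alike (array medians 6.19 to 6.28), so that a change in total RNA per cell is not seen. Depth does not apply to arrays, and their number limits the precision. No scan date or batch is given in the labels or files.

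Probe sets were named through the platform's gene annotation: 23521 have 1 symbol, 1814 several and 16010 are not listed. Gene IDs of 23328 matched the RefSeq gene table, and 0 symbols changed. Each of 22180 genes was represented by its brightest probe set over the 11 arrays, and 1082 genes had more than 1 probe set. All genes and arrays entered 1 limma model (3.58.1, R 4.3.3) of 4 group means (7 residual degrees of freedom), with 6 two-sided contrasts and Benjamini-Hochberg adjustment within each; it was tested on simulated data.

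Named genes were the 10 largest called changes per comparison, the 3 smallest p where under 3 were called, members with disagreeing probe sets, a fixed set of 16 members and up to 4 genes per list. Members, lists and tests were chosen with earlier results of these data known. Alternatives were cyclic loess scaling, leaving out the dimmest 40% of genes, the mean of probe sets, array weights, the replicate number as a block and each array left out. Same-numbered arrays did not deviate together (correlations -0.11 to 0.10), so the numbers were not taken as pairs. The retinoic acid, interferon and cell-type marker lists served as checks.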

Additional observations from a re-analysis of the deposited data

Results flagged for a closer look

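For 3 members the effect of ATRA ran in opposite directions with and without polyIC in every array, which is 4.23% of the 71, against 250 (1.13%) of the 22180 genes. All ATRA arrays lay below all PBS arrays for Mrpl24 while all RApIC arrays lay above both pIC arrays, and the difference between these effects was 0.23 log2 units (limma interaction, adjusted p = 0.794). For Mrps2 and Mrps5 the directions were the reverse: all ATRA arrays lay above all PBS arrays and all RApIC arrays below both pIC arrays. Their differences between the effects were -0.50 (adjusted p = 0.786) and -0.34 (adjusted p = 0.775), so no interaction passed the test. With 2 or 3 arrays a group, single arrays that lie far from their group were not tested for.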

How the results depend on the processing

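The number of members higher in pIC than in PBS (41) was 26 under cyclic loess scaling, 46 without the dimmest 40% of genes, 41 with the mean of probe sets and 46 with array weights, and between 5 and 46 with 1 array left out. All 26 members called under cyclic loess were among the 41. The number higher in RApIC than in ATRA (12) was 10 under cyclic loess, 19 without the dimmest genes, 11 with the mean of probe sets and 37 with array weights, and between 2 and 27 with 1 array left out. The number higher in RApIC than in PBS (1) was 0 under cyclic loess, 7 without the dimmest genes and 18 with array weights, and between 0 and 16 with 1 array left out. Array weights gave 1 member lower in RApIC than in pIC. The weights were 0.65, 0.37 and 4.19 for RApIC replicates 1, 2 and 3, and 0.59 to 1.51 for arrays of the other groups. In the weighted fit the RApIC comparisons thus lean on RApIC replicate 3. With the replicate block the counts were 30 for pIC relative to PBS, 10 for RApIC relative to ATRA and 0 for RApIC relative to PBS. Apart from the 1 member under array weights, no count of members called lower, and no count for ATRA relative to PBS or the interaction, moved from 0 under any alternative. The share of all genes called higher was 6.53% (pIC relative to PBS), 3.33% (RApIC relative to ATRA) and 1.39% (RApIC relative to PBS) under cyclic loess, and 17.7%, 7.84% and 4.66% without the dimmest genes. This share is not given here for the mean of probe sets, array weights, the replicate block or most fits with 1 array left out. Members above 0 in pIC relative to PBS numbered 70, and 65 under cyclic loess. The interaction had 8 members above 0, and 16 under cyclic loess. ATRA relative to PBS had 21 above 0, and 28 without PBS replicate 3. The single-gene results whose sign turned were not called. In pIC relative to PBS, cyclic loess gave -0.053 for Mrpl23, -0.065 for Mrpl24 and -0.035 for Mrpl17, the mean of probe sets gave -0.16 for Ptcd3, and leaving out 1 array gave -0.042 to 0.098 for Mrpl23 and -0.037 to 0.32 for Mrps36. In RApIC relative to ATRA, cyclic loess gave -0.027 for Mrpl23, the mean of probe sets gave -0.011 for Mrpl10, array weights gave 0.064 for Dap3, and leaving out 1 array gave -0.046 to 0.041 for Mrpl10, -0.00651 to 0.040 for Mrpl23 and -0.050 to 0.067 for Dap3. Of 145 single-gene results, cyclic loess ended 12 calls, the mean of probe sets 8, the replicate block 15 and array weights 0. The cause was not tested, beyond the fewer arrays or genes that an alternative leaves. Signal over background is not in the deposited values, so a probe near background cannot be told from a dim one.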
